A study of Mus musculus with 8 samples.

Results

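Hypoxia and glycolysis genes, 30 of the 27998 genes in the matrices, were described by their RNA counts in cells of the mouse left ventricle. They were taken by symbol from a list of glucose transporters, glycolytic enzymes, lactate and pyruvate genes, oxygen sensors and further hypoxia-responsive genes, and all 30 were found in both matrices. In single-cell RNA sequencing each caught transcript receives a molecular tag (unique molecular identifier, UMI), and counting tags counts molecules. The study compared hearts after ischemia–reperfusion (IR) with hearts after sham surgery, in male mice on a C57BL/6 background aged 10 to 12 weeks. In the IR mice the left anterior descending coronary artery was tied for 30 min and then released, and in sham mice it was not tied. The labels name 4 samples IR0h and 4 samples IR6h, while the protocol places both sham and IR hearts at 6 h after surgery, and the 0 h samples were read here as sham. Tissue of 3 hearts was pooled for a sample, no genetic change or drug was given to either group, and no barcode carries the name of its sample. Each condition was therefore 1 library, none of the differences below has a replicate check, and no test was made.

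When oxygen is short, hypoxia-inducible factor 1 alpha (HIF-1α, encoded by *Hif1a*) escapes hydroxylation by the prolyl hydroxylases encoded by *Egln1* and *Egln3*, is no longer degraded, and pairs with ARNT to switch on its targets. Many targets belong to glycolysis, which turns glucose into pyruvate without oxygen, and lactate dehydrogenase and a lactate exporter then dispose of the product. Oxygen acts on HIF-1α mainly at the protein, which RNA counts do not show. Myeloid cells also raise HIF-1α and glycolysis when they are activated by inflammatory signals, with or without low oxygen.

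HIF-1 binds DNA at the core letters ACGTG or GCGTG. These letters were searched on both strands (CACGT and CACGC on the other strand) in the 250 bases before the first listed RefSeq start site of each gene (GRCm38.p6). A palindromic CACGTG counts as 2 overlapping matches. Of the 29 genes with a RefSeq promoter entry, 23 (79.3%) held at least 1 match, against 38.6% of 27025 promoters of all genes over the same length. A match is a description of the letters, and binding was not measured. Both cores hold the letters CG, and the promoters of all genes were not matched for base composition. The genes were also listed as hypoxia-responsive or glycolytic, so the higher share is not an independent result. *Ndrg1* had no entry. The window of *Hif1a*, which held 3 matches, is not shown. The windows of 5 genes are shown because results below rest on their levels, in macrophage-like cells or, for *Egln3*, mainly in neutrophil-like cells. Of these, 4 hold the letters and *Pkm* does not. Each is given 5′ to 3′ on the strand of its gene, with the matching letters in capitals:
Slc2a1, chr4:119108495-119108744, plus strand: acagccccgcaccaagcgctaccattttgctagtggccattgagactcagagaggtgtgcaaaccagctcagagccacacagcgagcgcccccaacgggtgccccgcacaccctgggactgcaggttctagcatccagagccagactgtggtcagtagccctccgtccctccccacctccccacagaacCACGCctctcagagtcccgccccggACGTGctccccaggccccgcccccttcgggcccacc
Ldha, chr7:46845554-46845803, plus strand: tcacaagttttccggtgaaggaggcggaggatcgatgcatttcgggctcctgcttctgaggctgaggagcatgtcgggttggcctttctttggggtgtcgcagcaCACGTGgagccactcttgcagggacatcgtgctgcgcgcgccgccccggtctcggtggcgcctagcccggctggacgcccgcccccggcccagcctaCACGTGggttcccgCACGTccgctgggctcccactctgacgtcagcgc
Ero1l, chr14:45318573-45318822, minus strand: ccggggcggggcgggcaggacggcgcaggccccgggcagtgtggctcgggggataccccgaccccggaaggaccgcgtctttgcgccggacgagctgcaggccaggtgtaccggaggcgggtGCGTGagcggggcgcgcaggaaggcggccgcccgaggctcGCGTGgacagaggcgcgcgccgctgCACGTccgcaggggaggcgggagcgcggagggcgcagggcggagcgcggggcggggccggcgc
Egln3, chr12:54203875-54204124, minus strand: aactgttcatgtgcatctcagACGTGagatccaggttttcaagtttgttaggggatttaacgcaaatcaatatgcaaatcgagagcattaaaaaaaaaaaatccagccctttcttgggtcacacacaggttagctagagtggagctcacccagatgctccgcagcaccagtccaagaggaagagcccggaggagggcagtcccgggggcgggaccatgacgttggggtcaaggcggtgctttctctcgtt
Pkm, chr9:59656326-59656575, plus strand: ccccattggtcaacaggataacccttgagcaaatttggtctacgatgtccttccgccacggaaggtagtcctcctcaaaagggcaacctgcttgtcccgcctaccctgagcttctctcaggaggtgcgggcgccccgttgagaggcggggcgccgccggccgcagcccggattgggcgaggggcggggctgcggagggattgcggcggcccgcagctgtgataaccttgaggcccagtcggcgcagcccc

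The *Ldha* window held 5 matches, of which 2 pairs are palindromes at 145 and 48 bases before the start, and a further match lay 34 bases before it. The *Slc2a1* window held 2 matches, at 61 and 36 bases before the start, *Ero1l* held 3 and *Egln3* 1. The transcribed regions lie, in GENCODE coordinates of the same build, on chromosome 4 from 119108711 to 119137983 for *Slc2a1*, on chromosome 7 from 46841475 to 46855627 for *Ldha*, on chromosome 14 from 45283087 to 45318771 for *Ero1l*, on chromosome 12 from 54178981 to 54203860 for *Egln3* and on chromosome 12 from 73901375 to 73947530 for *Hif1a*. That of *Pkm* lies on chromosome 9 from 59656368 to 59679375. The windows of *Slc2a1*, *Ldha*, *Ero1l* and *Pkm* overlap these transcribed regions, since each precedes only the first listed RefSeq start site. Other start sites were not searched. All 30 genes are annotated as protein coding.

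The 0 h matrix held 11620 barcodes and the 6 h matrix 8539. The study's filter of 200 to 2500 genes and at most 30% mitochondrial UMIs kept 9777 barcodes (84.1%) with 40607011 UMIs at 0 h and 4880 (57.1%) with 21441943 UMIs at 6 h. The upper limit took out 1600 barcodes at 0 h and 3385 at 6 h, so the cells richest in RNA are missing mostly from the 6 h library. The filter as stated left fewer cells than the study itself counts after its quality control, above all at 6 h, so the cells described here are not the same set, and calls that change without the upper limit are given below. The 30 genes held 0.306% of kept UMIs at 0 h and 0.396% at 6 h. Cells were clustered without the 30 genes, and clusters were called neutrophil-like, fibroblast-like and so on from marker genes. Macrophage-like cells were divided into MerTK+CCR2- cells, the resident type, and MerTK-CCR2+ cells, the type derived from monocytes, by the relative level of the 2 receptors. The libraries lay largely in different clusters. For B cell-like cells, 1 cluster held 1071 cells at 0 h and 43 at 6 h, and the other 22 and 690. Of the MerTK-CCR2+ cells, 226 of 251 at 0 h lay in a subcluster led by the monocyte marker *Ly6c2* with no 6 h cell, and all 350 at 6 h lay in another, led by *Saa3*, *Thbs1* and *Cxcl3*, with 25 cells at 0 h. A subcluster led by *Ear2*, with 6 cells at 0 h and 63 at 6 h, had relative *Ccr2* (2.232) above relative *Mertk* (0.103). It was left out because *Fabp4*, an endothelial marker, and no macrophage marker was among its 10 leading genes. Of the MerTK+CCR2- cells, 376 of 394 at 6 h lay in a subcluster led by *Lpl* and *Gdf15*, which held 23 of the 2884 cells at 0 h. A class at 6 h and at 0 h may thus be different states or different cells. The barcodes that both libraries share numbered 30.

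In all, 9 classes with at least 50 cells in each library were compared. A level (CPM) is given as UMIs of a gene per 1000000 UMIs of its class, and a difference as the log2 ratio of the 6 h to the 0 h level, with its exact 95% interval in brackets, which covers counting error only. A gene entered the counts with at least 20 UMIs over both libraries in the class. Taken as whole classes, the MerTK-CCR2+ macrophage-like cells were where the 30 genes differed most often, although their subclusters differed between the libraries. There, 12 of 28 genes were at least 2-fold higher at 6 h, where 12.9% of all 7606 genes tested were, and none was at least 2-fold lower, where 22.6% of all genes were. The median log2 ratio over the 28 genes was 0.95, and that over all genes -0.26. Summed, the 30 genes went from 3928 to 6823 CPM (log2 ratio 0.80 [0.75, 0.84]). Without the upper limit on genes, 12 of 28 were at least 2-fold higher and none lower, beside 10.8% and 19.1% of all genes, with 372 cells at 0 h and 1137 at 6 h. *Pfkl* and *Mxi1* then dropped out of the 12 and *Pgam1* and *Ndrg1* came in. Inside the *Saa3* subcluster alone, 5 of 28 genes were higher, close to the 15.5% of all genes there. The log2 ratio of the sum was 0.15 [0.04, 0.26] in that subcluster. All 6 h levels of the class are those of the *Saa3* subcluster. In the left-out *Ear2* subcluster the 30 genes summed to 3573 CPM at 6 h, with *Hif1a* at 153 CPM and *Slc2a1* at 64.1 CPM.

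In MerTK+CCR2- macrophage-like cells 5 of 29 genes were at least 2-fold higher and none lower, beside 10.7% and 7.69% of all genes, and the median was 0.38 beside 0.13 for all genes. Without the upper limit, 8 of 30 were higher and none lower, beside 10.1% and 8.57%. In neutrophil-like cells 3 of 28 were higher and 6 lower, beside 11.5% and 21.4% of all genes, with a median of -0.47 beside -0.26. The neutrophil shares were close to those of all genes. Since the median of all genes was off 0 by more than 0.1 in both macrophage classes, in neutrophil-like cells and in NK cell-like cells (0.17), ratios in these classes are to be read against that median. With ratios centred on the median of all genes, 19 of 28 genes were higher and none lower in MerTK-CCR2+ cells, beside 17.0% and 16.5% of all genes centred in the same way. In MerTK+CCR2- cells 3 of 29 were then higher and 1 lower, beside 8.38% and 9.79%, so that the share of higher genes was close to that of all genes. In neutrophil-like cells the split of calls turned, with 5 of 28 higher and 3 lower, beside 16.3% and 13.3%.

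Among the stromal classes, 5 of 30 genes were higher and 1 lower in fibroblast-like cells beside 13.8% and 17.4% of all genes, and 7 higher and none lower after centring, beside 15.5% and 15.9%. Fibroblast-like cells numbered 2979 at 0 h and 238 at 6 h, but 3634 and 1717 without the upper limit on genes. Without it, 5 of 30 genes were higher and 1 lower, beside 10.5% and 17.5%. Mural-like cells (pericytes and smooth muscle) had 2 of 27 higher and 3 lower, beside 8.12% and 10.7%. Endothelial-like cells had 5 of 25 higher and 1 lower, beside 8.31% and 14.7%, on only 69 cells at 6 h. Among lymphoid classes, B cell-like cells had 1 of 28 higher and 3 lower, beside 5.74% and 4.44%. T cell-like cells had 3 of 26 higher and none lower, beside 5.39% and 5.35%, and NK cell-like cells had 2 of 19 higher and none lower, beside 13.8% and 9.29%. Before centring, the share of higher genes thus stood furthest above that of all genes in MerTK-CCR2+ cells. In the other classes the number of higher genes lay within a few genes of what the share of all genes would give. Those counts are not read as a difference.

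Of the 52 calls in the 9 classes, 40 held without the upper limit on genes, 12 were lost and 14 others came in. Lost in macrophages were *Pfkp* in MerTK+CCR2- cells (log2 ratio 0.96) and *Pfkl* (0.97) and *Mxi1* (0.62) in MerTK-CCR2+ cells. Of the endothelial-like calls, *Hk1* (0.43), *Pfkp* (0.64), *Bnip3* (0.47) and the lower *Pfkl* (-0.99) were lost, while *Slc16a3* (2.50), *Slc2a1* (1.67) and *Egln3* (4.94, on 2 and 30 UMIs) came in. Fibroblast-like cells lost *Pfkfb3* (0.71) and the lower *Pdk1* (-0.52) and gained *Ldha* (1.24) and a lower *P4ha2* (-1.23). The other losses were *Hif1a* in T cell-like cells (0.82), *Pgk1* in neutrophil-like cells (-0.83) and *Adm* in B cell-like cells (-0.72). In MerTK+CCR2- cells *Hif1a* (1.37), *Ero1l* (1.08), *Adm* (1.61) and *Egln3* (3.58, on 4 and 30 UMIs) came in, and in MerTK-CCR2+ cells *Pgam1* (1.06) and *Ndrg1* (1.04). *Pfkfb3* came in in mural-like (1.51) and T cell-like cells (1.05) and *Slc2a1* in NK cell-like cells (1.19).

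**Figure D1:**
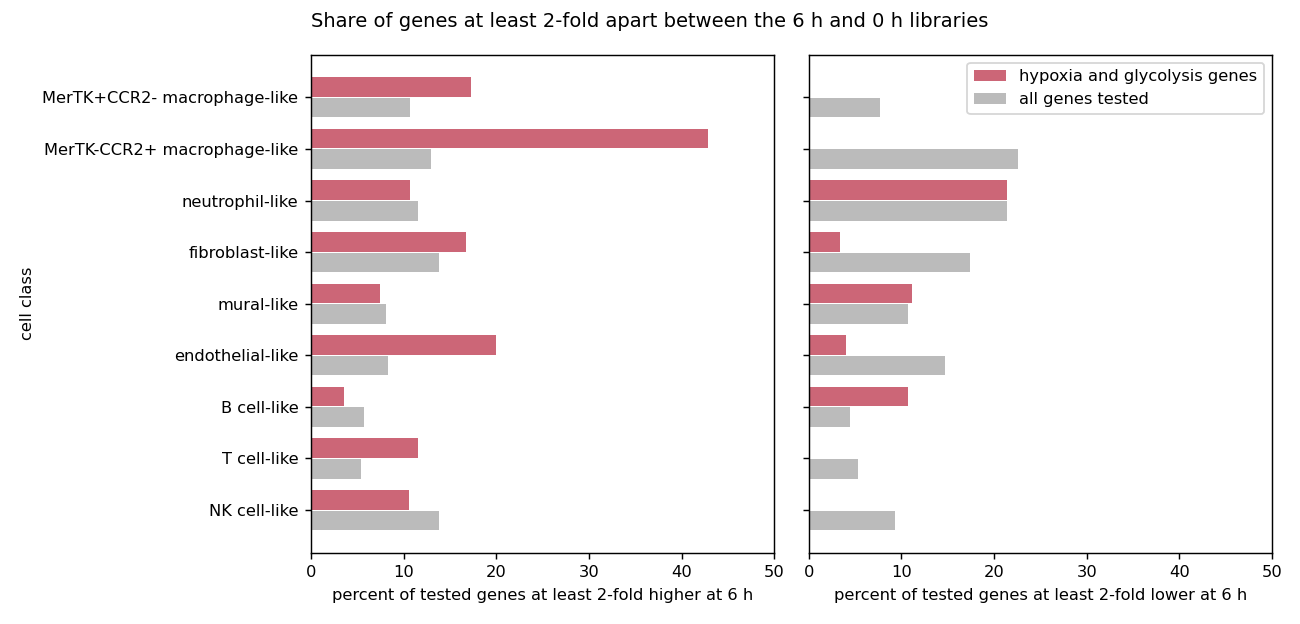
Percent of tested genes at least 2-fold higher (left) or lower (right) at 6 h than at 0 h in each cell class, for the 30 hypoxia and glycolysis genes (red, of those with at least 20 UMIs) and for all genes tested (grey). The longest red bar on the left is that of the MerTK-CCR2+ macrophage-like cells, 12 of 28 genes beside 12.9% of all genes. That class and the MerTK+CCR2- class were each made up largely of different subclusters at 0 h and 6 h.

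**Figure D2:**
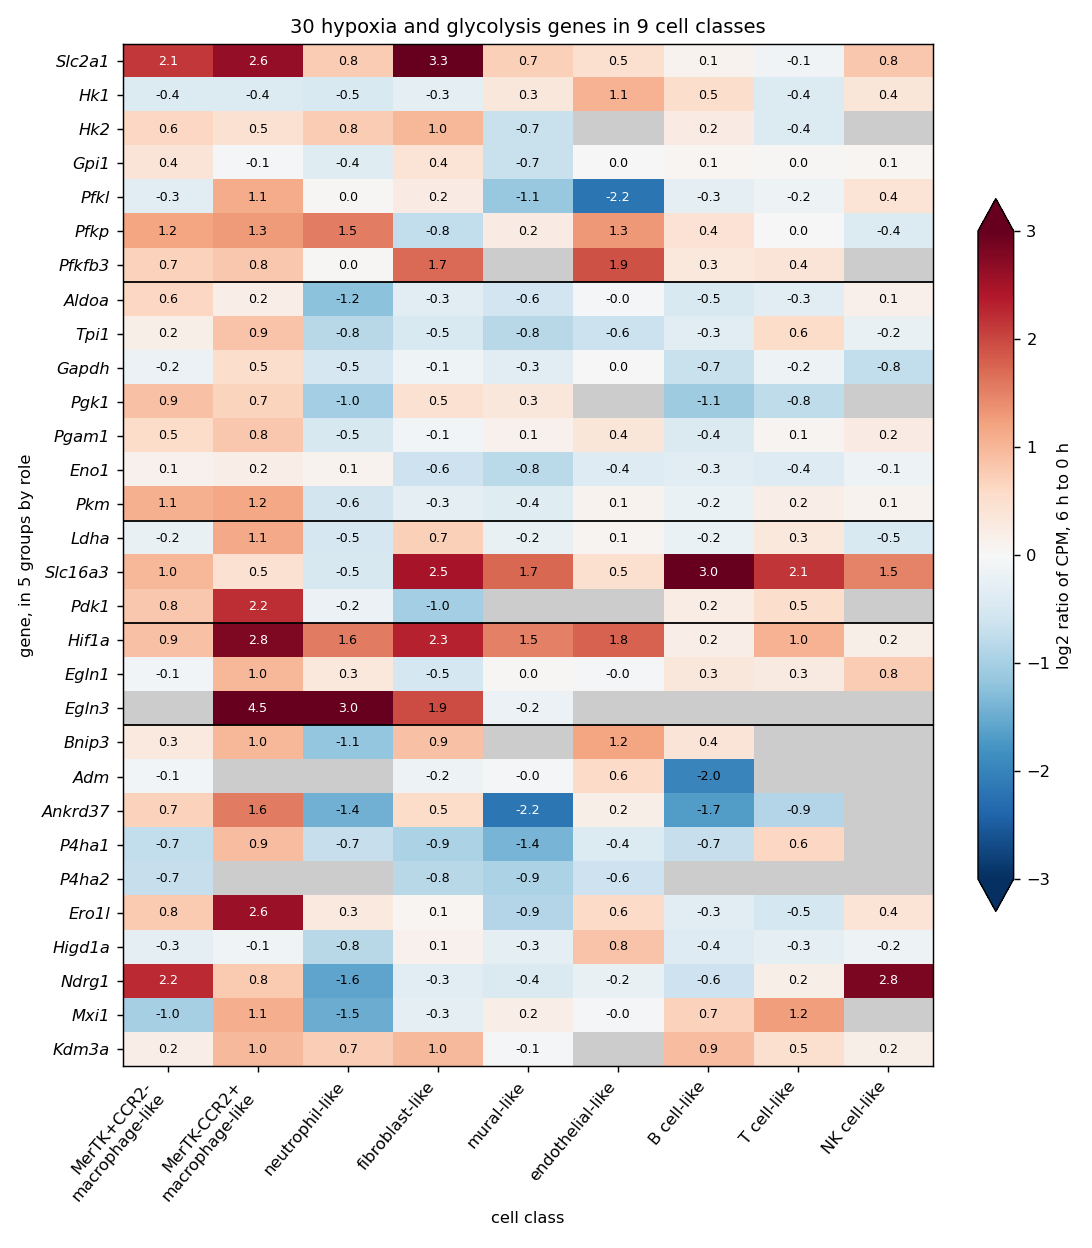
Log2 ratio of CPM at 6 h to 0 h for each gene (rows, in 5 groups by role divided by black lines) and cell class (columns), with the value printed in each cell and grey where fewer than 20 UMIs were counted. The colour scale ends at 3 in both directions. *Hif1a* is above 0 in every column (though not in NK cell-like cells once centred), while the lower glycolytic enzymes (second block) are above 0 in both macrophage columns with the exception of *Gapdh* in MerTK+CCR2- cells (after centring, *Eno1* as well), and mostly below 0 elsewhere, where those of fibroblast-like cells mostly turned without the upper limit on genes.

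The oxygen sensing genes were led by *Hif1a*. In MerTK-CCR2+ macrophage-like cells *Hif1a* was at 85.4 CPM at 0 h and 599 CPM at 6 h (log2 ratio 2.81 [2.53, 3.1]). It was higher at 6 h in all 9 classes, in NK cell-like cells only before centring on the median of all genes, and at least 2-fold higher in 6 of them. In fibroblast-like cells it went from 38.8 to 194 CPM (2.32 [2.08, 2.56]), in endothelial-like cells from 49.7 to 169 CPM (1.77 [1.15, 2.39]) and in neutrophil-like cells from 83.5 to 248 CPM (1.57 [1.13, 2.05]). In mural-like cells the levels were 105 and 300 CPM (1.51 [1.19, 1.82]) and in T cell-like cells 68.4 and 141 CPM (1.04 [0.71, 1.39]). The MerTK+CCR2- cells stayed under the 2-fold line, from 39.8 to 73.1 CPM (0.88 [0.62, 1.12]), but without the upper limit on genes they passed it, from 42.0 to 108 CPM (1.37). B cell-like cells (55.2 and 62.8 CPM) and NK cell-like cells (54.3 and 61.2 CPM) had intervals that hold 0.

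The share of cells with a *Hif1a* UMI differed in the same direction. With each cell thinned to 1000 UMIs, which left out 9 and 32 shallower cells, a *Hif1a* UMI was found in 9.92% [6.46, 14.4] of MerTK-CCR2+ cells at 0 h and in 39.3% [33.9, 44.9] at 6 h. Without thinning the shares were 36.7% and 68.9%, at median depths of 5721 and 5170 UMIs. B cell-like cells, with 5.12% and 4.99% after thinning and 13.4% and 19.8% before it, gave the level of a class in which *Hif1a* differed little, at median depths of 2075 and 3304 UMIs. Those cells, too, lay largely in different clusters at 0 h and 6 h.

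*Egln3*, whose enzyme hydroxylates HIF-1α, was highest in the 6 h neutrophil-like cells, with 26.5 CPM at 0 h (13 UMIs) and 215 CPM at 6 h (2133 UMIs; 3.02 [2.24, 3.93]). Its UMIs lay in 2.16% of neutrophil-like cells at 0 h and 16.5% at 6 h after thinning to 1000 UMIs, and in 4.08% and 40.4% before it. In B cell-like cells at 6 h 0.819% of the cells had one before thinning, and thinning left none in 701 cells. MerTK-CCR2+ cells went from 1 UMI (0.73 CPM) to 32 UMIs (16.3 CPM; 4.48 [1.90, 9.83]), and fibroblast-like cells from 2.85 to 11 CPM (1.95 [0.84, 2.93]). *Egln1*, the hydroxylase that is made in most tissues, differed by less than 2-fold in all 9 classes. Its largest ratio was in MerTK-CCR2+ cells, from 19.0 to 37.7 CPM (0.99 [0.33, 1.69]). The sum of the 3 sensing genes was 105 and 653 CPM in MerTK-CCR2+ cells (2.63) and 118 and 473 CPM in neutrophil-like cells (2.0).

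Of the glucose entry genes, *Slc2a1* encodes the glucose transporter GLUT1. Its level was 7.64 CPM at 0 h and 74.8 CPM at 6 h in fibroblast-like cells (3.29 [2.85, 3.73]). In MerTK-CCR2+ cells it was 35.8 and 222 CPM (2.64 [2.21, 3.09]), and in MerTK+CCR2- cells 12.9 and 55.5 CPM (2.11 [1.77, 2.44]). At 6 h the MerTK-CCR2+ cells held the highest *Slc2a1* level of the 9 classes, a rank that neutrophil-like cells held at 0 h with 114 CPM, where the level at 6 h was 193 CPM (0.76 [0.37, 1.17]). T cell-like (18.5 and 17.1 CPM) and B cell-like cells (21.3 and 23.0 CPM) differed within counting error.

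The enzymes of upper glycolysis were mixed. *Pfkp*, the platelet-type phosphofructokinase, was at least 2-fold higher at 6 h in 4 classes, of which neutrophil-like and MerTK-CCR2+ cells remained without the upper limit. Its levels were 24.4 and 70.7 CPM in neutrophil-like cells (1.53 [0.72, 2.49]), 29.2 and 72.6 CPM in endothelial-like cells (1.31 [0.38, 2.20]), 56.2 and 135 CPM in MerTK-CCR2+ cells (1.27 [0.90, 1.65]) and 22.3 and 51 CPM in MerTK+CCR2- cells (1.19 [0.88, 1.5]). The liver-type isoform *Pfkl* went the other way in vessel-wall classes, from 37.0 to 8.07 CPM in endothelial-like cells on 38 and 2 UMIs (-2.20 [-5.29, -0.24]) and from 59.3 to 26.9 CPM in mural-like cells (-1.14 [-2.1, -0.31]), but was higher in MerTK-CCR2+ cells, at 17.5 and 38.2 CPM (1.12 [0.44, 1.85]). Without the upper limit its mural-like call alone remained. *Pfkfb3*, which makes the activator of phosphofructokinase, was higher in endothelial-like cells, at 19.5 and 72.6 CPM (1.90 [0.90, 2.89]), and in fibroblast-like cells, at 4.65 and 15 CPM (1.69 [0.77, 2.51]), the latter under 2-fold without the upper limit.

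The hexokinases trap glucose in the cell as glucose 6-phosphate. *Hk1* passed 2-fold in endothelial-like cells alone, at 39.0 and 80.7 CPM (1.05 [0.20, 1.86]), a value that turned to -0.11 where the mitochondrial limit was set to 10%. *Hk2* was highest in fibroblast-like cells, 99.5 CPM at 0 h and 199 CPM at 6 h, just under the 2-fold line (log2 ratio 1.0 [0.78, 1.21]). *Gpi1*, glucose phosphate isomerase, was among the genes closest to no change in 5 classes.

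**Figure D3:**
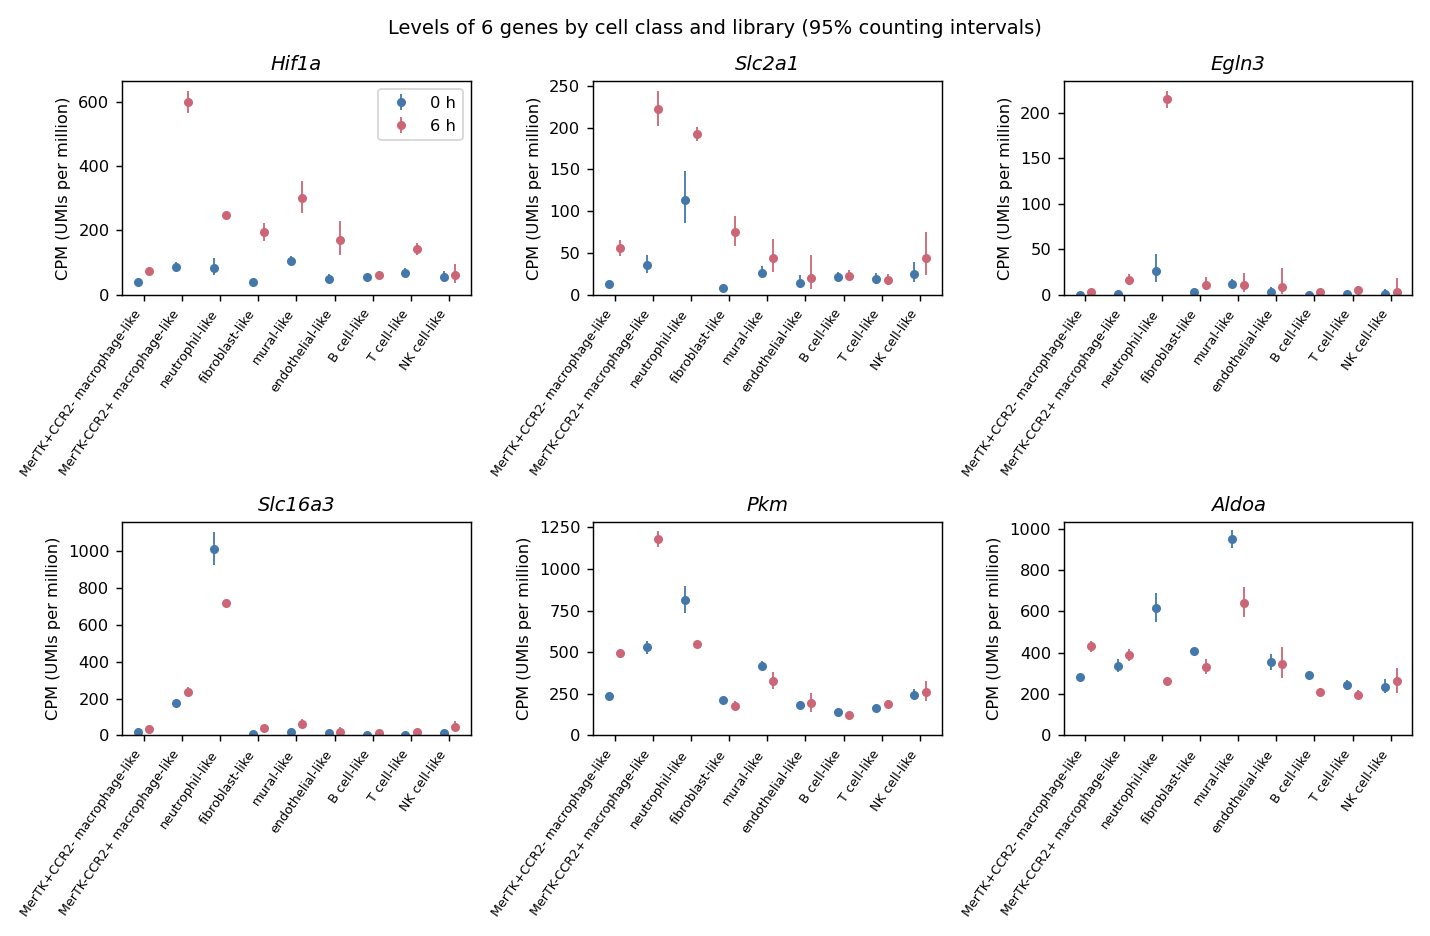
CPM of 6 genes (panels) in the 9 cell classes at 0 h (blue) and 6 h (red), 1 library each, on linear axes from 0. Points are levels and bars exact 95% Poisson intervals. *Hif1a* at 6 h peaks in MerTK-CCR2+ cells at 599 CPM and *Egln3* in neutrophil-like cells at 215 CPM, while *Aldoa* in neutrophil-like and mural-like cells is lower at 6 h.

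Lower glycolysis, the 7 enzymes from aldolase to pyruvate kinase, differed by less than *Slc2a1* in both macrophage classes. Summed, the 7 genes were at 2643 and 4093 CPM in MerTK-CCR2+ cells (0.63 [0.57, 0.69]) and at 2125 and 2485 CPM in MerTK+CCR2- cells (0.23 [0.19, 0.27]). They were lower in neutrophil-like cells, at 3374 and 2251 CPM (-0.58 [-0.66, -0.51]), in B cell-like cells, at 1406 and 996 CPM (-0.50 [-0.57, -0.43]), and in mural-like cells, at 3256 and 2388 CPM (-0.45 [-0.54, -0.36]). Pyruvate kinase, *Pkm*, makes pyruvate and was the one enzyme of this group past 2-fold in macrophages, joined after centring by *Tpi1* and *Pgam1* in MerTK-CCR2+ cells and itself then under 2-fold in MerTK+CCR2- cells. The MerTK-CCR2+ cells had 528 and 1178 CPM (1.16 [1.04, 1.28]) and the MerTK+CCR2- cells 235 and 492 CPM (1.06 [0.97, 1.16]).

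Aldolase A, *Aldoa*, was at 615 CPM in neutrophil-like cells at 0 h and 262 CPM at 6 h (-1.23 [-1.40, -1.05]). *Pgk1*, phosphoglycerate kinase, was at 22.4 and 11.1 CPM there (-1.02 [-1.91, 0.03]) and at 11.5 and 5.46 CPM in B cell-like cells (-1.07 [-2.08, -0.14]). *Tpi1*, triose phosphate isomerase, and *Pgam1*, phosphoglycerate mutase, were highest relative to 0 h in MerTK-CCR2+ cells, at 112 and 204 CPM (0.86) and 177 and 309 CPM (0.80), and the ratio of *Eno1*, enolase, stayed between -0.82 in mural-like and 0.19 in MerTK-CCR2+ cells. *Gapdh*, often used as a reference gene, ranged from -0.75 in NK cell-like cells (841 and 500 CPM) to 0.52 in MerTK-CCR2+ cells (1060 and 1517 CPM). Of the 30 genes 12 share at least 1 stretch of 60 bases in the last 400 bases of a transcript with another annotated gene. These are *Gapdh*, *Pgk1*, *Eno1*, *Ldha*, *Aldoa*, *Tpi1*, *Ero1l*, *Pkm*, *Pgam1*, *Gpi1*, *Bnip3* and *Higd1a*. Their levels are uncertain where reads that match 2 places are not counted.

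In neutrophil-like cells the summed lower glycolytic enzymes were lower at 6 h and the summed sensing genes higher, while the 7 genes of glucose entry and upper glycolysis were at 517 and 592 CPM (0.20 [0.01, 0.38]). Their 0 h cells were few, 245, and shallow, with a median of 1630 UMIs against 3937 at 6 h. Only 1 cluster, with 69 cells at 0 h and 989 at 6 h, held a fair number from both libraries, and within it the 30 genes summed to 7987 and 4667 CPM (-0.78 [-0.85, -0.70]). There *Aldoa* was at 1014 and 326 CPM, *Gapdh* at 2527 and 1166 CPM and *Pkm* at 979 and 545 CPM, and 8 of 27 genes were at least 2-fold lower and 1 higher, beside 10.1% and 17.5% of all genes tested in that cluster. *Hif1a* was at 125 and 179 CPM within it (0.52 [-0.05, 1.16]) and *Egln3* at 45.0 and 79.8 CPM (0.83 [-0.12, 1.97]), both with intervals that hold 0. The larger *Egln3* level lay in the other 6 h cluster, of 1380 cells with 1 cell at 0 h, at 289 CPM.

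**Figure D4:**
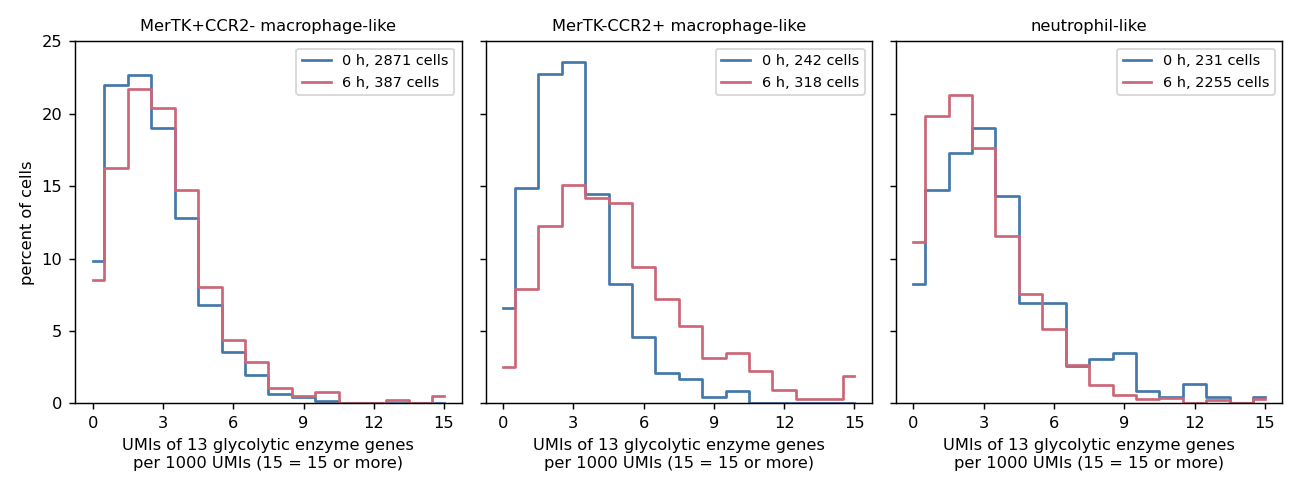
Percent of cells by their UMIs of 13 glycolytic enzyme genes (hexokinase to lactate dehydrogenase), each cell thinned to 1000 UMIs, at 0 h (blue) and 6 h (red) in MerTK+CCR2- macrophage-like, MerTK-CCR2+ macrophage-like and neutrophil-like cells. The mean went from 2.57 to 2.99 UMIs, from 2.97 to 4.92 UMIs and from 3.55 to 2.81 UMIs in the 3 panels.

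Of the lactate and pyruvate genes, *Ldha*, the lactate dehydrogenase subunit that favours lactate, was at least 2-fold higher only in MerTK-CCR2+ cells among the 9 classes, at 239 and 522 CPM (1.13 [0.95, 1.31]). In MerTK+CCR2- cells it was at 232 and 200 CPM (-0.22 [-0.36, -0.08]), a value that turned to 0.12 without the upper limit. Fibroblast-like cells were at 240 and 394 CPM (0.72 [0.56, 0.87]), and at 239 and 563 CPM (1.24) without that limit. *Pdk1*, whose kinase keeps pyruvate out of the mitochondrial cycle, rested on few UMIs, 3 and 20 in MerTK-CCR2+ cells (2.22 [0.46, 4.61]) and 58 and 2 in fibroblast-like cells (-1.01 [-4.09, 0.91]).

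*Slc16a3*, which encodes the lactate exporter MCT4, was highest in neutrophil-like cells, at 1010 CPM at 0 h and 720 CPM at 6 h (-0.49 [-0.62, -0.35]), followed by MerTK-CCR2+ cells at 174 and 238 CPM. It was at least 2-fold higher at 6 h in 6 classes that held little of it at 0 h. The levels were 1.64 and 13.3 CPM in B cell-like cells (3.01 [1.65, 4.73]), 7.22 and 39.9 CPM in fibroblast-like cells (2.47 [1.90, 3.01]) and 3.70 and 16.4 CPM in T cell-like cells (2.15 [0.84, 3.72]). Mural-like cells had 19.3 and 64.1 CPM (1.73 [1.0, 2.46]), NK cell-like cells 15.7 and 44.2 CPM (1.49 [0.27, 2.72]) and MerTK+CCR2- cells 16.8 and 33.7 CPM (1.0 [0.62, 1.37]).

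Neutrophil marker RNA, such as that of *S100a8* and *S100a9*, was higher at 6 h in these classes too. Summed over the 9 markers, it was at 134 and 1157 CPM in B cell-like cells, 101 and 1860 CPM in fibroblast-like cells and 1293 and 8309 CPM in NK cell-like cells. If all of it had come with neutrophil RNA of the same library, the *Slc16a3* that came along at 6 h would be 44.2 CPM in NK cell-like cells, equal to the 44.2 CPM measured. The reckoning can overshoot, since for *Egln3* in NK cell-like cells it gave 13.2 CPM where 3.4 CPM were measured. The same reckoning gave 6.16 of 13.3 CPM in B cell-like cells, 4.76 of 16.4 in T cell-like, 9.90 of 39.9 in fibroblast-like, 3.63 of 64.1 in mural-like and 3.83 of 33.7 in MerTK+CCR2- cells. For *Hif1a* it gave 4.50 of 599 CPM in MerTK-CCR2+ cells and 3.41 of 194 CPM in fibroblast-like cells, and for *Slc2a1* 3.49 of 222 CPM and 2.65 of 74.8 CPM. For *Egln3* it gave a larger part, 3.9 of 16.3 CPM in MerTK-CCR2+ and 2.95 of 11 CPM in fibroblast-like cells.

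Other hypoxia-responsive genes differed in direction between classes. *Ero1l*, an oxidase of protein folding in the endoplasmic reticulum, was at 13.1 and 79.9 CPM in MerTK-CCR2+ cells (2.60 [1.90, 3.40]) and under 2-fold elsewhere, though past it in MerTK+CCR2- cells without the upper limit, at 11.4 and 24.0 CPM (1.08). *Ndrg1*, a stress-responsive gene, was at 2.1 and 9.86 CPM in MerTK+CCR2- cells (2.23 [1.39, 3.06]) and at 9.66 and 68.0 CPM in NK cell-like cells (2.82 [1.57, 4.21]), but at 52.9 and 17.6 CPM in neutrophil-like cells (-1.59 [-2.19, -0.93]). *Mxi1*, an antagonist of MYC, was at 67.1 and 142 CPM in MerTK-CCR2+ cells (1.08 [0.74, 1.44], but 67.2 and 103 CPM without the upper limit) and 11.7 and 27.8 CPM in T cell-like cells (1.25 [0.44, 2.11]), against 102 and 36.0 CPM in neutrophil-like cells (-1.5 [-1.93, -1.04]).

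*Bnip3*, which marks mitochondria for removal, was at 11.7 and 23.4 CPM in MerTK-CCR2+ cells (1.0 [0.16, 1.92]) and 19.5 and 44.4 CPM in endothelial-like cells (1.19 [-0.02, 2.32]), and at 67.2 and 30.2 CPM in neutrophil-like cells (-1.15 [-1.68, -0.59]). *Ankrd37*, an ankyrin-repeat gene, was lower at 6 h in mural-like cells (46.1 and 10.3 CPM, -2.16 [-3.82, -0.88]), in B cell-like cells (58.8 and 18.3 CPM, -1.68 [-2.18, -1.21]) and in neutrophil-like cells (20.4 and 7.55 CPM, -1.43 [-2.39, -0.31]). It was higher in MerTK-CCR2+ cells (6.57 and 19.3 CPM, 1.56 [0.48, 2.79]). The collagen prolyl hydroxylases, which stromal cells use to make collagen, were lower in most classes tested and not in stromal classes alone. The ratio of *P4ha1* was above 0 in only 2 of 8 classes tested, and that of *P4ha2* in 0 of 4. In MerTK+CCR2- cells *P4ha1* was at 87.4 and 52.2 CPM. *P4ha1* was at 210 and 80.6 CPM in mural-like cells (-1.39 [-1.90, -0.91]) and 188 and 97.8 CPM in fibroblast-like cells (-0.95 [-1.25, -0.66]), and *P4ha2* at 62.0 and 34.9 CPM in the latter (-0.83 [-1.36, -0.34]). *Adm*, the vasodilator adrenomedullin, was 9.19 and 2.34 CPM in B cell-like cells (-1.97 [-3.54, -0.67]) and highest in fibroblast-like cells, at 123 and 111 CPM. *Higd1a*, a mitochondrial gene, ranged from -0.84 in neutrophil-like to 0.85 in endothelial-like cells, and *Kdm3a*, a histone demethylase, from -0.06 in mural-like to 0.98 in MerTK-CCR2+ cells, with neither past 2-fold.

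The 2 genes closest to no change in each class were as follows. In MerTK+CCR2- cells they were *Egln1* (-0.08) and *Adm* (-0.08), and in MerTK-CCR2+ cells *Gpi1* (-0.05) and *Higd1a* (-0.10). Neutrophil-like cells had *Pfkl* and *Pfkfb3* (both 0.03), fibroblast-like cells *Ero1l* (0.06) and *Pgam1* (-0.09), and mural-like cells *Egln1* (0.03) and *Adm* (-0.04). Endothelial-like cells had *Gpi1* and *Gapdh* (both 0.02), B cell-like cells *Gpi1* (0.07) and *Slc2a1* (0.11), T cell-like cells *Pfkp* (0.01) and *Gpi1* (0.03), and NK cell-like cells *Gpi1* (0.05) and *Pkm* (0.11).

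The study's main question concerns the fate of MerTK+ cardiac macrophages. The 2 macrophage classes can be set against each other inside 1 library. Each library merges 4 samples, and how much each sample gave to each class is not known. At 0 h, 7 of 29 genes were at least 2-fold higher in the MerTK-CCR2+ class, relative to the MerTK+CCR2- class, and 4 lower, beside 12.7% and 17.7% of all genes. Of the 251 MerTK-CCR2+ cells at 0 h, 226 lay in the subcluster led by the monocyte marker *Ly6c2*. The 0 h contrast is thus largely between monocyte-like cells and resident macrophage-like cells. At 6 h, 14 of 28 were higher and none lower, beside 8.51% and 25.8% of all genes, with a median log2 ratio of 1.04 beside -0.34 for all genes. Without the upper limit 13 of 30 were higher and 2 lower, beside 8.3% and 25.8%.

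Some genes set the 2 classes apart at both times, though both classes were made up largely of different subclusters at 0 h and 6 h. *Slc16a3* was at 174 CPM in MerTK-CCR2+ against 16.8 CPM in MerTK+CCR2- cells at 0 h (3.37 [3.11, 3.64]) and at 238 against 33.7 CPM at 6 h (2.82 [2.48, 3.18]). *Ndrg1* was at 30.7 against 2.1 CPM at 0 h (3.87 [3.15, 4.60]) and 52.9 against 9.86 CPM at 6 h (2.42 [1.77, 3.13]), and *Pkm* at 528 against 235 CPM (1.16) and 1178 against 492 CPM (1.26). By contrast, *Ldha* was alike at 0 h, at 239 against 232 CPM (0.04 [-0.13, 0.20]), and apart at 6 h, at 522 against 200 CPM (1.38 [1.23, 1.54]). *Hif1a* went from 85.4 against 39.8 CPM (1.10 [0.80, 1.39]) to 599 against 73.1 CPM (3.03 [2.80, 3.27]), and *Ero1l* from 13.1 against 10.5 CPM (0.33) to 79.9 against 18.1 CPM (2.14 [1.65, 2.66]). *Mxi1* went from 67.1 against 42.5 CPM (0.66) to 142 against 21.4 CPM (2.73 [2.30, 3.19]). *P4ha1* was lower in MerTK-CCR2+ cells at 0 h, at 40.9 against 87.4 CPM (-1.10 [-1.51, -0.71]), and not at 6 h, at 77.4 against 52.2 CPM (0.57 [0.22, 0.92]).

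**Figure D5:**
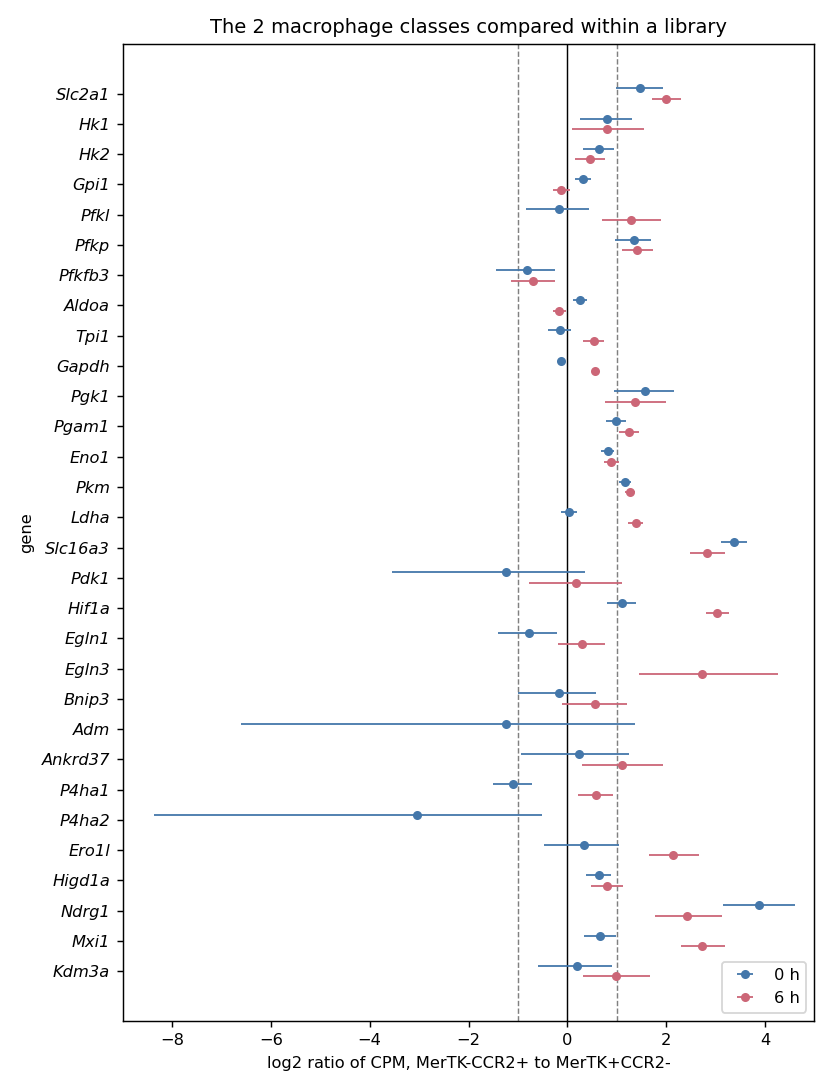
Log2 ratio of CPM in MerTK-CCR2+ to MerTK+CCR2- macrophage-like cells for each gene with at least 20 UMIs, within the 0 h (blue) and the 6 h library (red), with exact 95% counting intervals. Dashed lines mark 2-fold. *Hif1a*, *Ldha*, *Ero1l* and *Mxi1* lie further right at 6 h, at 3.03, 1.38, 2.14 and 2.73. Most MerTK-CCR2+ cells at 0 h were of the *Ly6c2* subcluster, which held no 6 h cell. Most MerTK+CCR2- cells at 6 h were of the *Lpl* and *Gdf15* subcluster, which held 23 cells at 0 h.

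Since the libraries hold different subclusters, the 6 h difference in macrophage-like cells was also read inside the subclusters found in both. The B cell-like clusters, which also differed between the libraries, were not read in this way. In the *Saa3* subcluster of MerTK-CCR2+ cells, with 25 cells at 0 h and 350 at 6 h, the 30 genes summed to 6170 and 6823 CPM (0.15 [0.04, 0.26]), and 5 of 28 genes were at least 2-fold higher and none lower, beside 15.5% and 19.3% of all genes. *Hif1a* was at 168 and 599 CPM there (1.84 [1.19, 2.57]), *Slc2a1* at 61.8 and 222 CPM (1.85 [0.79, 3.17]) and *Ldha* at 291 and 522 CPM (0.84 [0.34, 1.39]), while *Aldoa* was lower, at 609 and 387 CPM (-0.65 [-1.01, -0.28]). The sum over the 30 genes thus differed less within this subcluster than over the class, and the share of higher genes was close to that of all genes. Whether the cells of the *Ly6c2* and *Saa3* subclusters are the same cells at 2 stages was not tested. In the subcluster of MerTK+CCR2- cells led by *Lpl* and *Gdf15*, with 23 and 376 cells, the sum was 4141 and 3599 CPM (-0.20 [-0.35, -0.05]), 1 of 27 genes was at least 2-fold higher and 5 lower, beside 9.75% and 21.0% of all genes, and *Slc2a1* was at 74.1 and 58.2 CPM (-0.35 [-1.43, 0.99]).

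Fibroblast-like cells had 2 clusters found in both libraries. In the larger cluster, with 2959 and 90 cells, *Slc2a1* was at 7.53 and 47.4 CPM (2.66 [1.80, 3.42]) and *Hif1a* at 39.0 and 83.0 CPM (1.09 [0.49, 1.64]), and 8 of 30 genes were at least 2-fold higher and 2 lower, beside 18.1% and 8.13% of all genes. The other, with 20 and 148 cells, held most of the 238 fibroblast-like cells kept at 6 h. Without the upper limit on genes, 1717 fibroblast-like cells were found at 6 h. In this other cluster *Hif1a* had no UMI at 0 h and 166 UMIs at 6 h (250 CPM). *Slc2a1* rested there on 2 and 59 UMIs (1.32 [-0.59, 4.4]), an interval that holds 0, and 3 of 18 genes were higher and 6 lower, beside 14.8% and 17.4% of all genes.

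A further 65 genes of the same pathways, listed with earlier results of these data known, were all found in the matrices. Their counts stand beside the same shares of all genes as before. In MerTK-CCR2+ cells 9 of 36 tested were at least 2-fold higher and 8 lower, beside 12.9% and 22.6%. *Hilpda*, a lipid droplet protein induced by hypoxia, was at 10.2 and 520 CPM (5.67), *Vegfa*, the vessel growth factor, at 5.11 and 205 CPM (5.33), and *Eno3*, another enolase, at 235 and 3.56 CPM (-6.04). In MerTK+CCR2- cells 9 of 48 were higher and 4 lower, beside 10.7% and 7.69%, among them *Hilpda* at 9.83 and 59.2 CPM (2.59) and *Hmox1*, heme oxygenase, at 302 and 1752 CPM (2.54). In neutrophil-like cells 7 of 42 were higher and 6 lower, beside 11.5% and 21.4%, led by *Ier3* at 403 and 4736 CPM (3.55), *Hilpda* at 42.8 and 362 CPM (3.08) and *P4hb*, protein disulfide isomerase, at 20.4 and 168 CPM (3.05).

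In fibroblast-like cells 12 of 53 of these genes were higher and 13 lower, beside 13.8% and 17.4%, with *Tpd52* at 6.80 and 46.9 CPM (2.78) and *Selenbp1* at 180 and 39.9 CPM (-2.17). Mural-like cells had 5 of 43 higher and 6 lower, beside 8.12% and 10.7%, with *Pgam2* at 92.8 and 12.4 CPM (-2.90) and *Fam162a* at 724 and 231 CPM (-1.64). Endothelial-like cells had 2 of 30 higher and 6 lower, beside 8.31% and 14.7%, with *Cited2*, a HIF antagonist, at 88.6 and 40.4 CPM (-1.13), *Bhlhe40* at 103 and 202 CPM (0.97) and *Ier3* at 483 and 924 CPM (0.94). Lymphoid classes shared a lower *Mif*, a cytokine gene. It was at 345 and 169 CPM in B cell-like cells (-1.03), 342 and 143 CPM in NK cell-like cells (-1.26) and 306 and 199 CPM in T cell-like cells (-0.62). B cell-like cells had 3 of 39 higher and 2 lower, beside 5.74% and 4.44%, with *Arnt* at 28.6 and 53.8 CPM (0.91) and *Ier3* at 38.4 and 70.6 CPM (0.88). T cell-like cells had 2 of 33 higher and 1 lower, beside 5.39% and 5.35%, with *Bhlhe40* at 103 and 45.6 CPM (-1.18) and *Pdha1* at 40.0 and 63.9 CPM (0.67), and NK cell-like cells had 8 of 25 higher and 1 lower, beside 13.8% and 9.29%, with *Bnip3l* at 109 and 218 CPM (1.0) and *Ier3* at 140 and 170 CPM (0.28).

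Further measures differed between the libraries. Median mitochondrial shares were higher at 6 h in all 9 classes, from 2.03% to 5.38% in MerTK-CCR2+ cells and from 3.20% to 3.52% in neutrophil-like cells. The stress genes *Hspa1a* and *Hspa1b*, which tissue digestion can induce, summed to 634 and 3415 CPM in MerTK+CCR2- cells, and to 72.2 and 395 CPM in MerTK-CCR2+ cells. Cardiomyocyte marker RNA was lower at 6 h in all 9 classes, at 10.2 to 137 CPM against 37.9 to 307 CPM at 0 h. Their part in the results was not tested.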

How the data were processed

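Left ventricular cells were profiled by 3′ single-cell RNA sequencing. The authors aligned reads to mm10 with Cell Ranger (the submitters' processing notes give no version, and the matrix headers name software version 3.1.0) and deposited raw UMI counts, with genes in rows and barcodes in columns, as 1 merged matrix for each condition. Reads that match several genes are commonly dropped by that counter, which lowers genes with near-identical copies. No barcode names its sample, so conditions were compared as single libraries without tests.

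After the study's filter (genes seen in at least 5 cells), counts were scaled to 10000 per cell, 2000 variable genes without the 30 genes and the 65 pathway genes were regressed on UMIs, and 30 principal components, 30 neighbors and Leiden clustering at resolution 0.8 were used (Python 3.11.15, numpy 2.4.6, scipy 1.17.1, scikit-learn 1.9.0, leidenalg 0.10.2). Classes needed a marker score of at least 0.5 over 3 or more of 83 markers found. Scoring thresholds were set after the clusters had been seen: the best of 3 macrophage lists was taken, and neutrophil markers did not count against macrophage subclusters. Macrophage subclusters with more markers of another class than macrophage markers among their 10 leading genes were left out, that led by *Ear2* on *Fabp4* alone. Doublets were treated by the upper limit on genes only, and an alternative removed 9.30% and 6.83% of cells by simulated doublet scores. Ratios and intervals were tested on simulated counts that held counting error only. Differences between samples or cells and in cluster make-up were not simulated.

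The 30 genes and all lists were chosen with earlier results of these data known. All 30 genes are named, with values for those at least 2-fold apart and the 2 closest to no change in each class, and of the pathway list the 3 with the largest ratio at 100 or more UMIs, except a gene that is not reported here. Promoters are from RefSeq and gene positions from GENCODE vM21. Clusters of cardiomyocyte, platelet and Schwann cell markers had too few cells and are not analysed here.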

Additional observations from a re-analysis of the deposited data

Results flagged for a closer look

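Results are listed here because a gene was at least 2-fold higher at 6 h in 1 class of cells and at least 2-fold lower in another. Each class has 1 library per condition, and the differences between classes were not tested. The log2 ratio of *Pfkl* was 1.12 in MerTK-CCR2+ macrophage-like cells, -1.14 in mural-like cells and -2.20 in endothelial-like cells, and without the upper limit on genes it was 0.97 in the first and -0.99 in the last, both under 2-fold. That of *Bnip3* was 1.0 in MerTK-CCR2+ cells and -1.15 in neutrophil-like cells. *Ankrd37* had 1.56 in MerTK-CCR2+ cells, -1.43 in neutrophil-like, -2.16 in mural-like and -1.68 in B cell-like cells. *Ndrg1* had 2.23 in MerTK+CCR2- cells and 2.82 in NK cell-like cells against -1.59 in neutrophil-like cells. *Mxi1* had 1.08 in MerTK-CCR2+ cells and 1.25 in T cell-like cells against -1.50 in neutrophil-like cells, and without that limit 0.62 in MerTK-CCR2+ cells, under 2-fold.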

How the results depend on the processing

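No paired analysis was possible because no barcode names its sample, and no sample could be left out for the same reason. Of 1920 values of single genes under the alternatives, 1821 lay within the interval of the reported ratio. In 105 the sign changed, in 11 of these although the reported interval lay clear of 0, and 7 of the 11 were lower glycolytic enzymes, *Ldha* or *Egln1* that were lower at 6 h in fibroblast-like or MerTK+CCR2- cells and turned slightly higher without the upper limit on genes. The 1 value past 2-fold that changed sign was *Hk1* in endothelial-like cells, from 1.05 to -0.11 with a mitochondrial limit of 10%. Counts of genes at least 2-fold higher or lower that moved by over 1.5 times are given next, and for most the cause was not tested. Without the upper limit on genes, 8 in place of 5 were higher in MerTK+CCR2- cells, 0 in place of 1 lower in endothelial-like cells, and 2 each lower in MerTK-CCR2+ than MerTK+CCR2- cells at 0 h (4 reported) and 6 h (0). The median log2 ratio then became 0.38 in fibroblast-like cells (-0.01) and 0.01 in B cell-like cells (-0.19). With a mitochondrial limit of 10%, lower genes were 7 in mural-like (3), 0 in fibroblast-like (1) and 1 in T cell-like cells (0), higher genes 2 in endothelial-like cells (5), and 2 (4) were lower in MerTK-CCR2+ cells at 0 h, as at a clustering resolution of 1.2 (2). Clustering with the 30 genes gave 1 lower in MerTK+CCR2- cells (0).

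Classes set from each cell's own marker UMIs gave 0 higher in T cell-like (3) and NK cell-like cells (2), 1 lower in T cell-like (0) and 0 in fibroblast-like cells (1), a median of -0.05 in NK cell-like cells (0.17), and between macrophages 4 higher (7) and 0 lower (4) at 0 h and 9 higher (14) at 6 h. Removing high doublet scores gave 2 higher in B cell-like (1) and 1 in NK cell-like cells (2), and 1 lower in MerTK+CCR2- (0), 0 in fibroblast-like (1) and 5 in mural-like cells (3). CPM without mitochondrial, ribosomal and hemoglobin genes gave 2 higher in B cell-like (1) and 0 lower in fibroblast-like cells (1). Centring on the median of all genes gave 3 higher (5) and 1 lower (0) in MerTK+CCR2-, 19 higher (12) in MerTK-CCR2+, 5 higher (3) and 3 lower (6) in neutrophil-like and 0 lower (1) in fibroblast-like cells, with medians of 1.21 (0.95) in MerTK-CCR2+ and -0.20 (-0.47) in neutrophil-like cells. The split of calls in neutrophil-like cells thus turned from mostly lower to mostly higher.

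At 1.5-fold, higher genes were 13 in MerTK+CCR2-, 20 in MerTK-CCR2+, 6 in neutrophil-like, 9 in fibroblast-like, 3 in B cell-like and 4 in NK cell-like cells, and 13 between macrophages at 0 h. Lower genes were 3 in MerTK+CCR2-, 5 in fibroblast-like, 9 in mural-like, 3 in endothelial-like, 6 in B cell-like, 2 in T cell-like and 1 in NK cell-like cells, and 1 between macrophages at 6 h. With at least 100 UMIs, which tests fewer genes, higher genes were 7 in MerTK-CCR2+, 3 in fibroblast-like, 1 in mural-like, 0 in endothelial-like, 0 in B cell-like, 1 in T cell-like and 0 in NK cell-like cells. Lower genes were 0 in fibroblast-like, 0 in endothelial-like and 1 in B cell-like cells, and 1 between macrophages at 0 h. With no minimum, which adds genes of few UMIs, higher genes were 4 in mural-like, 2 in B cell-like and 9 in NK cell-like cells, and lower genes 2 in T cell-like cells and 1 between macrophages at 6 h. Within single clusters, chosen after seeing the data and with few 0 h cells, higher genes were 1 and lower genes 5 in MerTK+CCR2- cells, 5 higher in MerTK-CCR2+ cells, 1 higher in neutrophil-like cells, and 8 higher with 2 lower and 3 higher with 6 lower in the 2 fibroblast-like clusters. The remaining 249 counts and medians stayed within 1.5 times the reported count or, for medians, within 0.25 of it. Depth limits NK cell-like and endothelial-like cells most, with 77 and 69 cells at 6 h.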
